A study of Mus musculus with 10 samples.

Results

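The receptors for serotonin, dopamine, noradrenaline and adrenaline, acetylcholine, histamine and adenosine were examined in the motor cortex of mice with an astrocyte conditional knockout of membralin. Genes were taken from the deposited table by type (protein coding) and by name, and the rule found 56 of 35275 rows: 14 serotonin, 4 dopamine, 8 adrenergic, 5 muscarinic, 16 nicotinic, 4 histamine and 5 adenosine rows. A pair of rows bears the symbol Adora3; the second is named Tmigd3 in GENCODE M21 and is called so here. The dopamine receptor gene listed as Drd1a and the adrenergic receptor gene Adra2c lie outside the letters of the rule and are given beside the members. RNA was sequenced from 5 KO and 5 WT mice, all C57BL/6 and at postnatal day 22. KO mice carried that knockout of membralin, an endoplasmic reticulum membrane protein encoded by Tmem259, and WT mice were wild type; neither the Cre line nor the floxed allele is named in the labels. The knockout is directed to astrocytes, while the tissue sequenced holds all cells of the dissected cortex.

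These receptors read out the modulatory transmitters that reach the cortex from brainstem, basal forebrain and hypothalamus, together with adenosine, which is formed locally from released ATP. Most are G protein-coupled: Gq-coupled receptors raise intracellular calcium, Gs-coupled receptors raise cyclic AMP, and Gi/o-coupled receptors lower it and dampen transmitter release. The nicotinic subunits and the Htr3 subunits form ligand-gated ion channels instead.

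The libraries held 22968013 to 27567361 fragments in KO and 22793058 to 28827871 in WT. Tmem259 measured 20.1, 18.5, 34.4, 16.9 and 26.2 FPKM (fragments scaled by gene length and library depth) in KO1 to KO5, against 25.5, 23.8, 25.0, 32.4 and 30.4 FPKM in WT1 to WT5. The library labelled KO3 was thus the highest of the 10 and goes against its label, so receptor results that it touches, and counts of calls, are given with and without it. KO5 lay inside the WT range of Tmem259, so Tmem259 did not separate the groups without the library labelled KO3 either. Gfap, an astrocyte filament gene, measured 106 FPKM in that library, 426 to 673 FPKM in the other KO libraries and 79.4 to 114 FPKM in WT. The 8 markers of cortical excitatory neurons all entered the test, and Slc17a7, which loads glutamate into vesicles, measured 735 to 960 FPKM in KO and 724 to 817 FPKM in WT. Markers of neighbouring regions also differed between libraries. The 11 striatal projection neuron markers in the table summed to 497 to 635 FPKM in KO and 210 to 631 FPKM in WT, where WT2 alone reached 631 FPKM and the other WT libraries stayed at or below 351 FPKM. The 5 olfactory bulb markers summed to 6.13 to 46.5 FPKM in KO and 3.30 to 21.4 FPKM in WT. None of the markers was at 0 in every library.

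Receptor transcripts spanned the whole range from abundant to undetected. Of the 56 rows, 38 had a mean of at least 0.5 FPKM over the 10 libraries and entered the test, 10 of them with a mean of at least 10 FPKM. Drd3 lay just inside that filter (mean 0.589 FPKM) and Chrna3 just outside it (0.435 FPKM). By mean FPKM, which is per length and so comparable between genes, the order was led by Adora1, the Gi/o-coupled adenosine receptor that restrains transmitter release (45.4 ± 4.15 FPKM in KO and 54.7 ± 6.80 FPKM in WT; SD, n = 5 each). Chrm1, the main muscarinic receptor of cortical pyramidal cells, came second, at 31.7 ± 3.43 FPKM in KO and 39.1 ± 1.44 FPKM in WT. Adora2a, Hrh3, Chrm4 and Drd2 followed, then Adra1d, Chrm3, Chrnb2 and Adrb1. The most abundant serotonin receptor, Htr2c, ranked lower, with 10.7 ± 2.77 FPKM in KO and 7.60 ± 2.12 FPKM in WT. Adora1 lay above Chrm1 in every library, the lowest Adora1 value being 41.9 FPKM and the highest Chrm1 value 41.4 FPKM; the following genes down to Adrb1 overlapped with their neighbours.

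**Figure D1:**
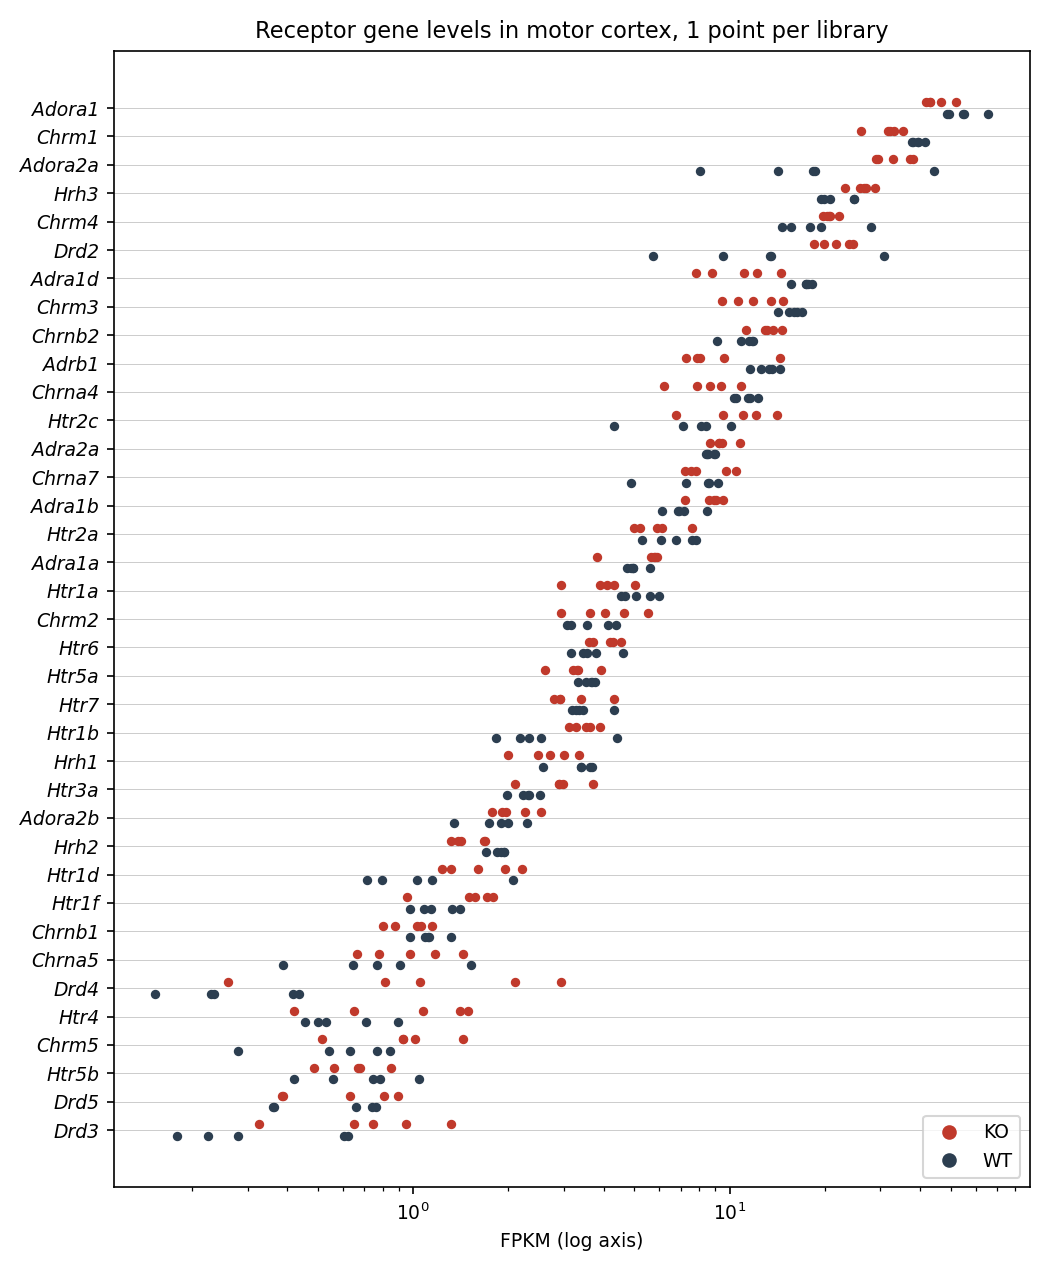
FPKM on a log axis of 37 of the 38 receptor genes in the test, ordered from the highest to the lowest mean over all libraries, with 1 point per library, KO above WT in each row. Adora1 and Chrm1 lead the order, and the WT points of Adora2a and Drd2 spread from 8.06 to 44.4 FPKM and from 5.73 to 30.8 FPKM.

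In KO cortex Adra1d, Adrb1, Chrm1 and Chrm3 fell, by 19.1% to 36.9% of their WT means, and no receptor gene rose. Adra1d, Chrm1 and Chrm3 encode Gq-coupled receptors and Adrb1 a Gs-coupled one. The 4 that fell are 10.5% of the 38 tested, where 3.51% of all 14497 genes tested were called lower, and the 0 that rose stand beside 9.77% called higher among all genes. The test was limma on log2(FPKM + 1) with Benjamini-Hochberg adjustment over all 14497 genes. Log2 ratios and log2 fold changes given here are differences of mean log2(FPKM + 1), unless another fit is named. At an unadjusted p under 0.05, 10 receptor genes were higher and 9 lower in KO, against 25.1% and 7.75% of all genes. The median log2 fold change was 0.12 over the 38 receptor genes and 0.08 over all genes. Median-of-ratios scaling, which moved the median of all genes to 0.00, called 7 lower, where 6.52% of all genes were, and 0 higher, where 4.19% were; limma voom on fragments recovered from the FPKM called 8 lower and 1 higher of 46, where 6.07% and 4.84% of all genes were. Adra1d, Adrb1, Chrm1 and Chrm3 were among the lower ones in both. The exact permutation test per gene called 0 receptor genes after adjustment, as it did for all genes, with 16 of 38 receptor genes and 30.1% of all genes at an unadjusted p under 0.05. The smallest p that this permutation test can give, 0.00794, adjusted to 0.105 here, so no gene could pass. In bulk tissue, fewer cells of a type and less RNA per cell cannot be told apart.

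Adra1d, the Gq-coupled alpha adrenergic receptor (minus strand of chromosome 2, bases 131545850 to 131562283 of mm10), measured 12.2, 8.83, 14.5, 11.1 and 7.84 FPKM in KO1 to KO5, against 17.5, 15.7, 17.4, 17.7 and 18.2 FPKM in WT1 to WT5. Every KO library lay below every WT library, and the library labelled KO3 was the highest KO value. The log2 ratio of KO to WT was -0.65 (SE 0.13, limma adjusted p = 0.0186), and it was -0.75 without the library labelled KO3 (limma adjusted p = 6.36e-04). Gm14285, a gene on the opposite strand that shares 147 exon bases with Adra1d in GENCODE M21, measured 0.782 ± 0.259 FPKM in KO and 2.48 ± 0.284 FPKM in WT (SD, n = 5 each); reads of the pair cannot be told apart without strand.

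Chrm1 (chromosome 19, 8663789 to 8683587, plus strand) measured 33.1, 31.6, 35.4, 32.2 and 26.1 FPKM in KO1 to KO5, against 37.8, 37.9, 41.4, 39.3 and 39.3 FPKM in WT1 to WT5. The groups again did not overlap. Its log2 ratio of KO to WT was -0.30 (SE 0.07, limma adjusted p = 0.0242), or -0.34 with the library labelled KO3 left out (limma adjusted p = 0.00460). Chrm3, a second Gq-coupled muscarinic receptor (chromosome 13, 9875486 to 10360844, minus strand), measured 13.5, 10.6, 14.8, 11.9 and 9.46 FPKM in KO1 to KO5, against 16.0, 14.2, 17.0, 15.4 and 16.3 FPKM in WT1 to WT5. Only the library labelled KO3 reached into the WT range. Its log2 ratio of KO to WT was -0.38 (SE 0.10, limma adjusted p = 0.0346), or -0.45 with that library left out (limma adjusted p = 0.00458).

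Adrb1, the beta adrenergic receptor that raises cyclic AMP (chromosome 19, 56722372 to 56724862, plus strand), measured 9.58, 7.89, 14.4, 8.04 and 7.29 FPKM in KO1 to KO5, against 13.3, 14.4, 12.6, 11.6 and 13.6 FPKM in WT1 to WT5. Of the KO libraries 4 lay below every WT library and the library labelled KO3 stood among the highest WT values. The log2 ratio of KO to WT was -0.47 (SE 0.14, limma adjusted p = 0.0476), or -0.62 with the library labelled KO3 left out (limma adjusted p = 4.22e-04). This was the weakest of the 4 calls: leaving out any library other than the one labelled KO3 ended it, with limma adjusted p between 0.0577 and 0.117. Chrm3 kept its call only without the library labelled KO3 or without WT2, with limma adjusted p between 0.0521 and 0.0822 in the other such fits. All 4 calls ended without KO2, without KO4 or without WT1, fits in which 2 genes of the whole table were called.

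**Figure D2:**
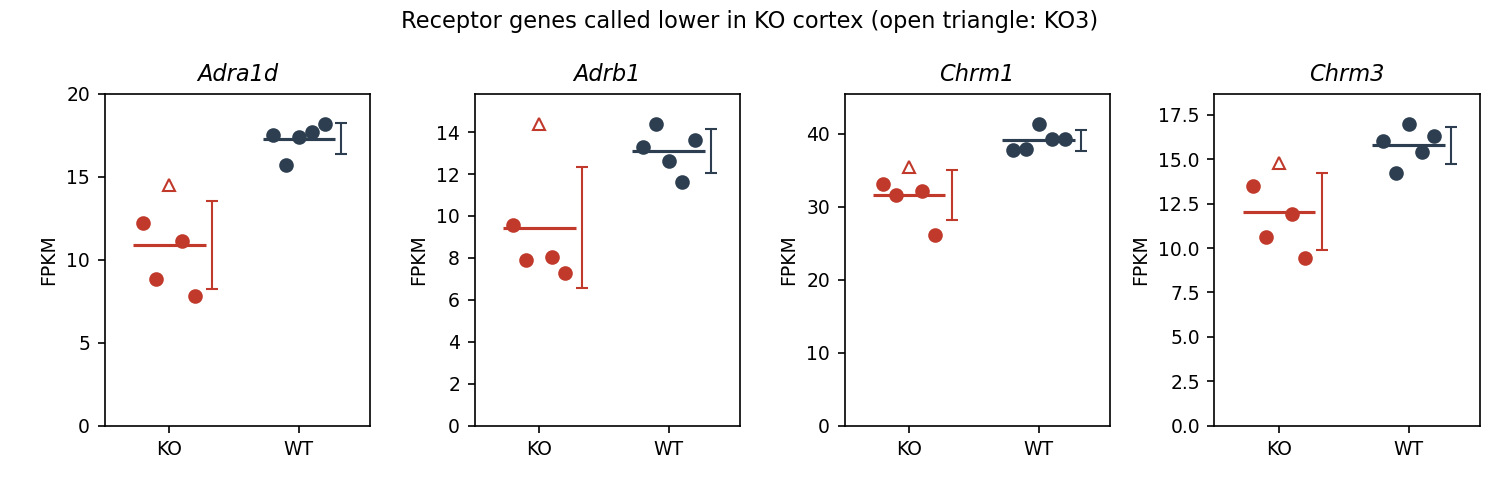
FPKM of the 4 receptor genes that fell, KO left and WT right in each panel, with 1 point per library, horizontal lines at the group mean and bars of 1 SD (n = 5). The open triangle is the library labelled KO3, which lies closer to the WT points than any other KO library and within the WT range for Adrb1 and Chrm3.

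Promoters are shown for Chrm3 and Adrb1, the called genes with an entry in the RefSeq table (GRCm38.p6; 42 of the 56 members matched), and for Drd4, the dopamine receptor gene described next, so that genes with fold changes of opposite sign can be compared. Each line gives the 250 bases before the start that RefSeq lists, which need not be the gene start of the deposited table, 5′ to 3′ on the strand of the gene. Capitals mark matches on either strand to the GC box GGGCGG, the cyclic AMP response element core TGACG, and the cores GTGGGCG and GGGGGCG bound by EGR factors; the last can overlap the GC box.
Chrm3 (chr13:10360804-10361053, minus strand): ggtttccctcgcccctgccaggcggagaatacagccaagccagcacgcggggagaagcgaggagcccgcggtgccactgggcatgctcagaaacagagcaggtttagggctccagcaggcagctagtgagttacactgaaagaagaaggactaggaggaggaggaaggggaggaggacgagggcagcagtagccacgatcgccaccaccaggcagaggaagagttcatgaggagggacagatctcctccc
Adrb1 (chr19:56721867-56722116, plus strand): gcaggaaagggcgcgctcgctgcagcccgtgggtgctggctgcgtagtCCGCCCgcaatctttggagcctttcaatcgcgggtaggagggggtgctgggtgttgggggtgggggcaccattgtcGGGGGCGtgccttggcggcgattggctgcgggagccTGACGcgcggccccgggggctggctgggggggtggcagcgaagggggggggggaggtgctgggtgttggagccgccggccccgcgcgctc
Drd4 (chr7:141291768-141292017, plus strand): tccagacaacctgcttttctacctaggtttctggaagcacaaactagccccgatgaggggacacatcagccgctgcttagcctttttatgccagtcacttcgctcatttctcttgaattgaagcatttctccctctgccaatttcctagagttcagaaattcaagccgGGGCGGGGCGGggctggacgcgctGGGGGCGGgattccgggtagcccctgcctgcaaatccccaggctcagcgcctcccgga
The Chrm3 stretch, 61.2% G and C, held none of these letters. The Adrb1 stretch, 74.0% G and C, held 1 GC box, 1 TGACG and 1 GGGGGCG. The Drd4 stretch, 56.8% G and C, held 3 GC boxes and 1 GGGGGCG. The Chrna4 stretch, 74.4% G and C and not printed here, held the same 3 GC boxes and 1 GGGGGCG. Chrna4 had a negative log2 fold change (-0.36) and Drd4 a positive one, so the same counts stood beside both signs in these genes. Neither gene was called with all libraries, and any link of the motifs to direction was not tested. Among all 32851 promoters listed there, 32.7% held the GC box, 17.8% TGACG, 7.02% GTGGGCG and 14.8% GGGGGCG.

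None of the 4 dopamine receptors passed the test with all libraries. All had positive log2 fold changes there, although Drd2 turned negative with striatal markers in the model, and Drd5 with olfactory bulb markers in it and in some smaller sets of libraries. Drd4, a Gi/o-coupled receptor (chromosome 7, 141292006 to 141294999), measured 2.09, 0.816, 0.259, 1.05 and 2.94 FPKM in KO1 to KO5, against 0.434, 0.234, 0.230, 0.418 and 0.153 FPKM in WT1 to WT5. All KO libraries but the one labelled KO3 lay above every WT library. The log2 ratio of KO to WT was 0.80 (SE 0.25, limma adjusted p = 0.0517), or 1.01 with the library labelled KO3 left out (limma adjusted p = 0.00437). Because the added 1 FPKM dampens low genes, the same gene reached 1.84 on recovered fragments (limma voom adjusted p = 0.0851). Drd3, another low Gi/o-coupled receptor, measured 0.947, 0.748, 0.326, 0.650 and 1.32 FPKM in KO1 to KO5, against 0.224, 0.620, 0.603, 0.179 and 0.280 FPKM in WT1 to WT5. Its log2 ratio of KO to WT was 0.37 (limma adjusted p = 0.110), or 0.47 with the library labelled KO3 left out (limma adjusted p = 0.0243). On recovered fragments Drd3 reached 1.01 (limma voom adjusted p = 0.139). Drd4 and Drd3 entered the test only through KO, since their WT means, 0.294 and 0.381 FPKM, lay below the 0.5 FPKM filter. That filter thus favours higher KO values for both genes wherever they are counted. Drd5, the Gs-coupled receptor, measured 0.621 ± 0.234 FPKM in KO and 0.577 ± 0.201 FPKM in WT (SD, n = 5 each; limma adjusted p = 0.859).

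Drd2 and Adora2a, which mark the same striatal projection neurons, varied so much between WT mice that the WT SD exceeded the difference between the group means. Drd2 measured 21.7, 24.6, 19.9, 18.5 and 23.8 FPKM in KO1 to KO5, against 9.52, 30.8, 13.4, 13.5 and 5.73 FPKM in WT1 to WT5. Adora2a measured 37.1, 37.9, 32.9, 29.4 and 29.0 FPKM in KO1 to KO5, against 14.2, 44.4, 18.6, 18.4 and 8.06 FPKM in WT1 to WT5. WT2 exceeded every KO library for both genes, and the other WT libraries lay below every KO library. The log2 fold changes were 0.73 (limma adjusted p = 0.120) and 0.85 (limma adjusted p = 0.0838). Without WT2 they were 1.03 and 1.17 (limma adjusted p = 0.0272 each), and Chrm4, Htr1b, Htr1d and Hrh3 were called higher in that fit as well, 6 of 38 where 5.90% of all genes were called higher, beside 3 called lower (2.28% of all genes). With the mean log2 level of the striatal markers as a covariate the log2 fold changes were -0.20 for Drd2 and -0.06 for Adora2a. Drd1a, the Gs-coupled dopamine receptor of the other striatal projection neurons, had the same pattern, with 15.4, 17.3, 12.5, 14.5 and 14.7 FPKM in KO1 to KO5, against 5.85, 19.3, 11.2, 8.57 and 4.25 FPKM in WT1 to WT5.

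**Figure D3:**
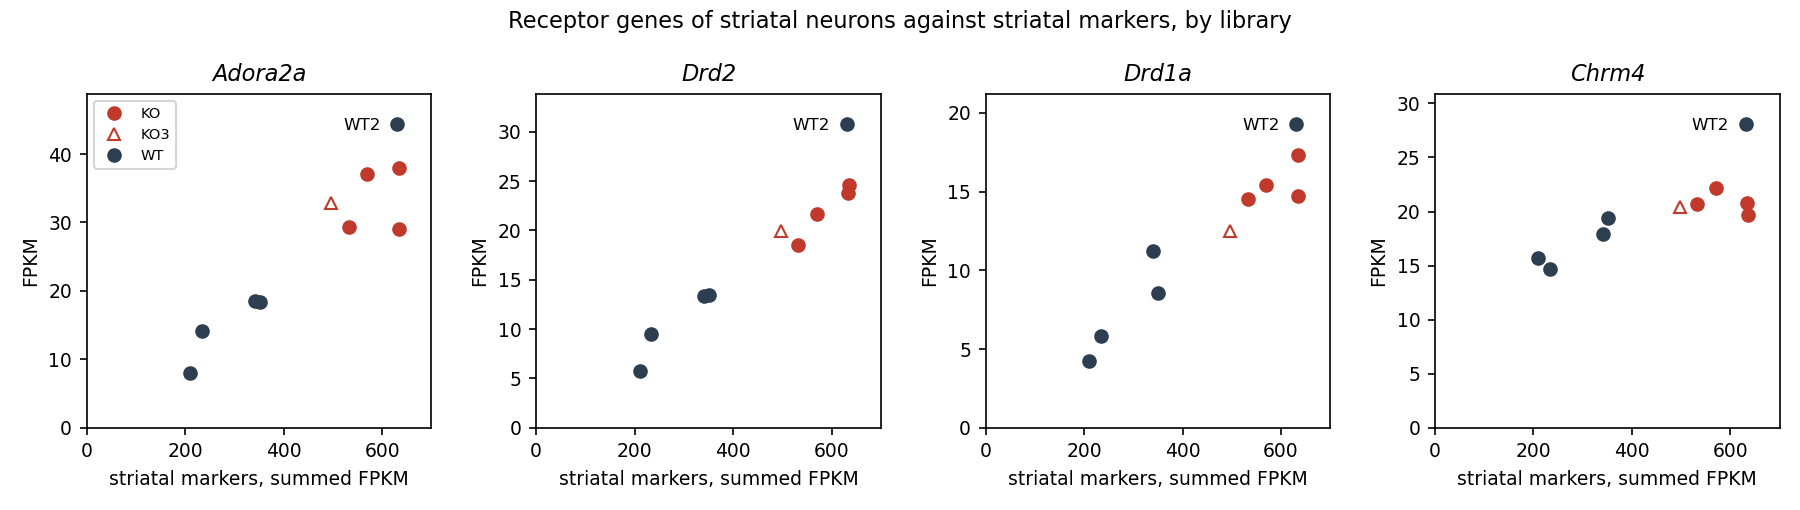
FPKM of Adora2a, Drd2, Drd1a and Chrm4 in each library against the summed FPKM of 11 striatal markers in that library, which do not include these genes. The KO libraries (open triangle, the library labelled KO3) sit at 497 to 635 FPKM of striatal markers together with WT2, and the other WT libraries sit at or below 351 FPKM.

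The remaining muscarinic receptors did not pass the test with all libraries. Chrm4, the Gi/o-coupled receptor also found in striatal neurons, measured 20.8 ± 0.920 FPKM in KO and 19.2 ± 5.34 FPKM in WT (SD, n = 5 each; limma adjusted p = 0.476). Chrm2, the Gi/o-coupled autoreceptor of cholinergic terminals, measured 4.16 ± 0.984 FPKM in KO and 3.66 ± 0.589 FPKM in WT (limma adjusted p = 0.495). Chrm5, the rarest, measured 0.964 ± 0.331 FPKM in KO and 0.613 ± 0.220 FPKM in WT, with a log2 fold change of 0.28 (limma adjusted p = 0.165) and of 0.37 without the library labelled KO3 (limma adjusted p = 0.0432).

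Among the other adrenergic receptors none passed with all libraries. Adra1b, Gq-coupled like Adra1d, measured 9.06, 8.63, 7.23, 9.55 and 8.93 FPKM in KO1 to KO5, against 6.13, 7.16, 6.91, 6.85 and 8.48 FPKM in WT1 to WT5. In 4 KO libraries it lay above every WT library. Its log2 ratio of KO to WT was 0.26 (limma adjusted p = 0.0630), or 0.31 with the library labelled KO3 left out (limma adjusted p = 0.0130). The ratio of Adra1d to Adra1b, chosen after the values were seen, was 1.28 ± 0.442 in KO and 2.46 ± 0.291 in WT (SD, n = 5 each). Adra2a, the Gi/o-coupled autoreceptor of noradrenergic terminals, measured 9.50 ± 0.794 FPKM in KO and 8.67 ± 0.256 FPKM in WT (limma adjusted p = 0.191). Adra1a, also Gq-coupled, had a limma adjusted p of 0.618. Adra2c, which the rule leaves out, measured 15.1 ± 1.78 FPKM in KO and 12.1 ± 2.79 FPKM in WT (limma adjusted p = 0.106; the library labelled KO3 left out, 0.0445).

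None of the 12 serotonin receptor genes tested passed with all libraries, 7 with positive and 5 with negative log2 fold changes. Htr2c, a Gq-coupled receptor of neurons and choroid plexus, measured 12.1, 11.0, 6.76, 9.55 and 14.1 FPKM in KO1 to KO5, against 7.11, 10.1, 8.42, 8.10 and 4.31 FPKM in WT1 to WT5. The library labelled KO3 was the lowest KO value and lay inside the WT range. The log2 ratio of KO to WT was 0.45 (limma adjusted p = 0.140), or 0.59 with that library left out (limma adjusted p = 0.0332). The 9 choroid plexus markers summed to 181, 85.4, 8.91, 8.65 and 88.8 FPKM in KO1 to KO5, against 102, 59.7, 20.5, 139 and 24.4 FPKM in WT1 to WT5, and their part in the Htr2c values was not tested. Htr1a, the Gi/o-coupled receptor that inhibits pyramidal cells and raphe neurons, measured 4.30, 4.09, 5.03, 3.90 and 2.93 FPKM in KO1 to KO5, against 5.97, 4.66, 5.05, 5.59 and 4.54 FPKM in WT1 to WT5. Its log2 ratio of KO to WT was -0.29 (limma adjusted p = 0.0817), or -0.36 with the library labelled KO3 left out (limma adjusted p = 0.0221).

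Htr2a, the Gq-coupled target of classical hallucinogens in cortical pyramidal cells, measured 5.96 ± 1.02 FPKM in KO and 6.72 ± 1.06 FPKM in WT (SD, n = 5 each; limma adjusted p = 0.381). Htr3a, a channel subunit of cortical interneurons, measured 2.89, 2.88, 2.98, 3.71 and 2.09 FPKM in KO1 to KO5, against 2.52, 2.32, 2.30, 1.98 and 2.23 FPKM in WT1 to WT5 (log2 fold change 0.25, limma adjusted p = 0.107). Htr1b, a Gi/o-coupled presynaptic receptor, measured 3.48 ± 0.304 FPKM in KO and 2.66 ± 1.02 FPKM in WT, with WT2 at 4.41 FPKM above every KO library (limma adjusted p = 0.135). The Gi/o-coupled Htr1d and Htr1f and the Gs-coupled Htr4 had log2 fold changes of 0.33, 0.19 and 0.29, with limma adjusted p of 0.166, 0.228 and 0.215. Those of Htr6 and Htr7, also Gs-coupled, and of Htr5a and Htr5b lay between -0.11 and 0.11.

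**Figure D4:**
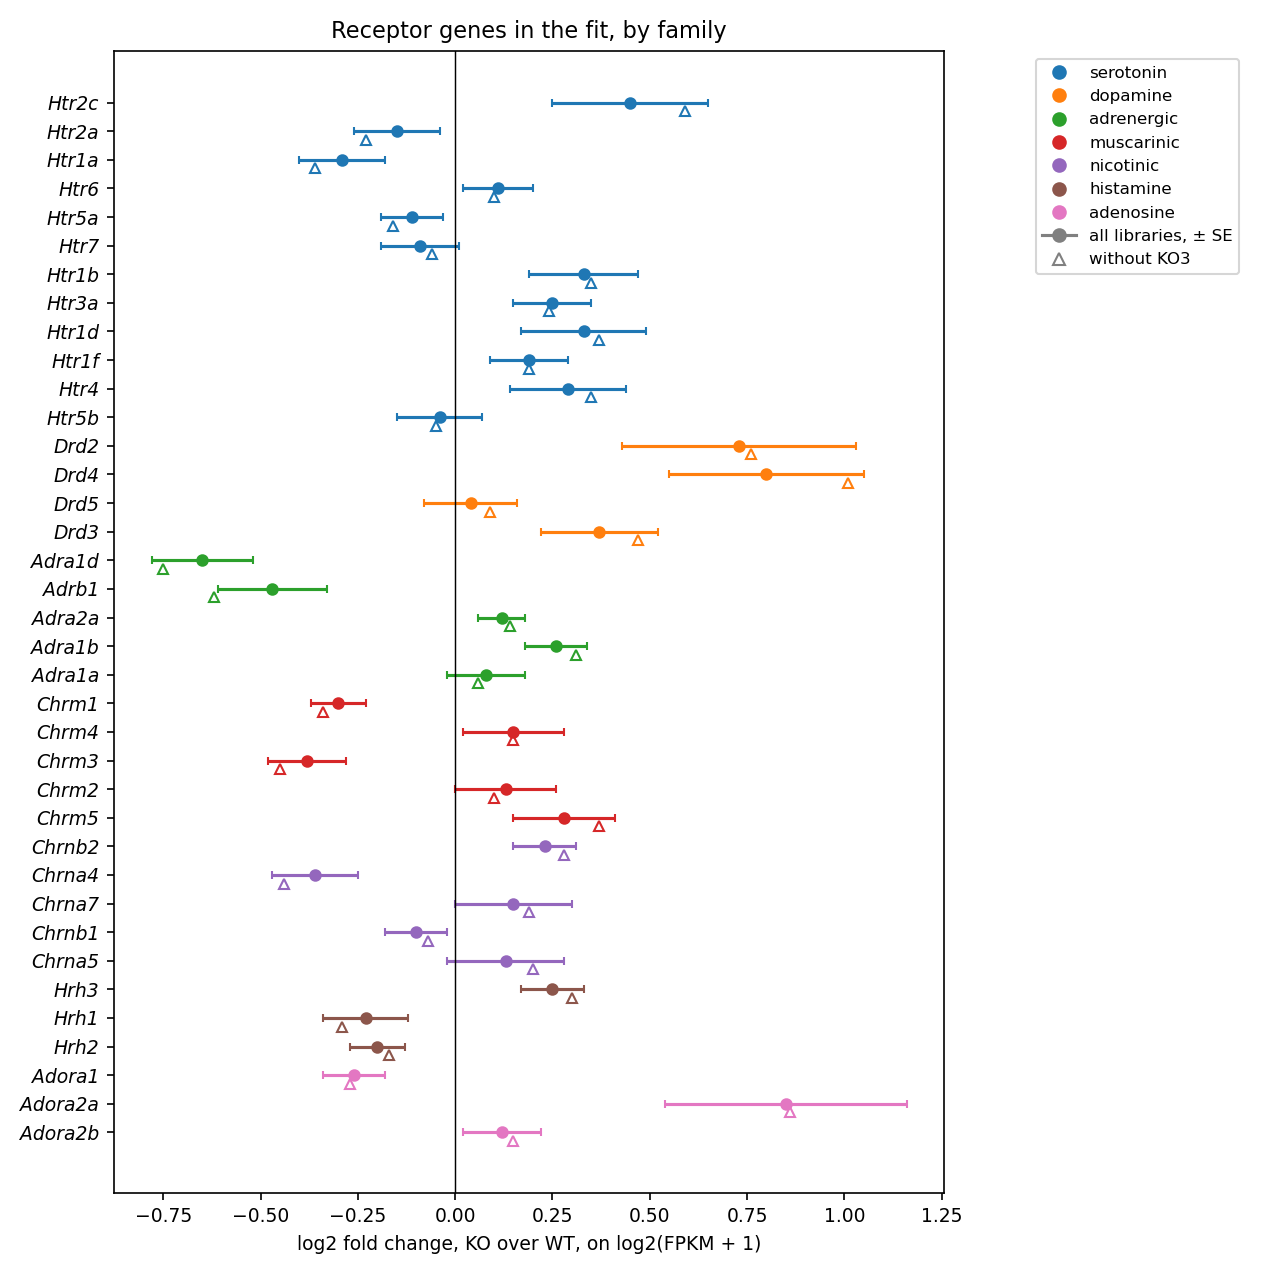
Log2 fold change of KO over WT on the log2(FPKM + 1) scale for 37 of the 38 receptor genes tested, grouped by family, with filled points and bars for all libraries (± SE) and open triangles for the fit without the library labelled KO3. Adra1d, Adrb1, Chrm3 and Chrm1 lie lowest, except that Chrna4, at -0.36, lies between Chrm3 and Chrm1; Adora2a, Drd4 and Drd2 lie highest.

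The nicotinic subunits of the main cortical receptor, which joins alpha and beta subunits encoded by Chrna4 and Chrnb2, pointed in opposite directions. Chrna4 measured 9.41, 8.67, 10.9, 7.89 and 6.19 FPKM in KO1 to KO5, against 10.3, 11.4, 11.6, 12.3 and 10.5 FPKM in WT1 to WT5. Chrnb2 measured 14.6, 13.1, 11.3, 13.7 and 12.9 FPKM in KO1 to KO5, against 10.9, 11.5, 11.9, 11.8 and 9.16 FPKM in WT1 to WT5. For each gene 4 KO libraries lay outside the WT range and the library labelled KO3 lay inside it. Neither passed with all libraries on log2(FPKM + 1): the log2 ratio of KO to WT was -0.36 for Chrna4 (SE 0.11, limma adjusted p = 0.0522) and 0.23 for Chrnb2 (SE 0.08, limma adjusted p = 0.0692). Without the library labelled KO3 they were -0.44 and 0.28 (limma adjusted p = 0.00812 and 0.0184). With all libraries and median-of-ratios scaling they were -0.45 and 0.14 (limma adjusted p = 0.0356 and 0.184). Limma voom gave -0.49 and 0.16 (adjusted p = 0.0260 and 0.148), so the Chrnb2 side depended on the scaling. The ratio of Chrna4 to Chrnb2, chosen after the values were seen, was 0.644, 0.660, 0.965, 0.575 and 0.478 in KO1 to KO5, against 0.942, 0.991, 0.974, 1.04 and 1.14 in WT1 to WT5. Chrnb2 shares 1365 exon bases with Adar on the opposite strand, and Adar measured 33.4 ± 0.810 FPKM in KO and 32.1 ± 1.75 FPKM in WT (SD, n = 5 each; limma adjusted p = 0.427).

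Chrna7, which forms a calcium-permeable receptor by itself, measured 8.58 ± 1.45 FPKM in KO and 7.69 ± 1.73 FPKM in WT (SD, n = 5 each; limma adjusted p = 0.490). Chrna5, an accessory subunit of deep-layer cortical neurons, and Chrnb1, a subunit of the muscle receptor, had limma adjusted p of 0.575 and 0.400. The other 11 nicotinic genes were below the filter. Chrna2, a subunit found in a group of Sst interneurons, measured 0.576, 0.447, 0.379, 0.618 and 0.617 FPKM in KO1 to KO5, against 0.266, 0.266, 0.274, 0.253 and 0.173 FPKM in WT1 to WT5. Every KO library, the one labelled KO3 included, lay above every WT library, on 232 fragments in KO and 114 in WT. On recovered fragments its log2 fold change was 0.98 (limma voom adjusted p = 0.0174 over 16063 genes), the 1 receptor gene called higher there where 4.84% of genes were; the exact permutation p was 0.00794, the smallest possible, and 0.528 after adjustment over the 10909 genes below the filter. Sst itself measured 164 ± 41.7 FPKM in KO and 111 ± 19.9 FPKM in WT and rose (limma adjusted p = 0.0482, but 0.0971 with median-of-ratios scaling), as did Gad1, Gad2 and Slc32a1 among 9 interneuron markers, while Pvalb and Lamp5 fell; their part in the Chrna2 values was not tested. Of the members, 14 share exon bases with another gene, Hrh3, Adora1 and Chrm1 among them, and such reads cannot be assigned without strand where the partner is antisense.

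**Figure D5:**
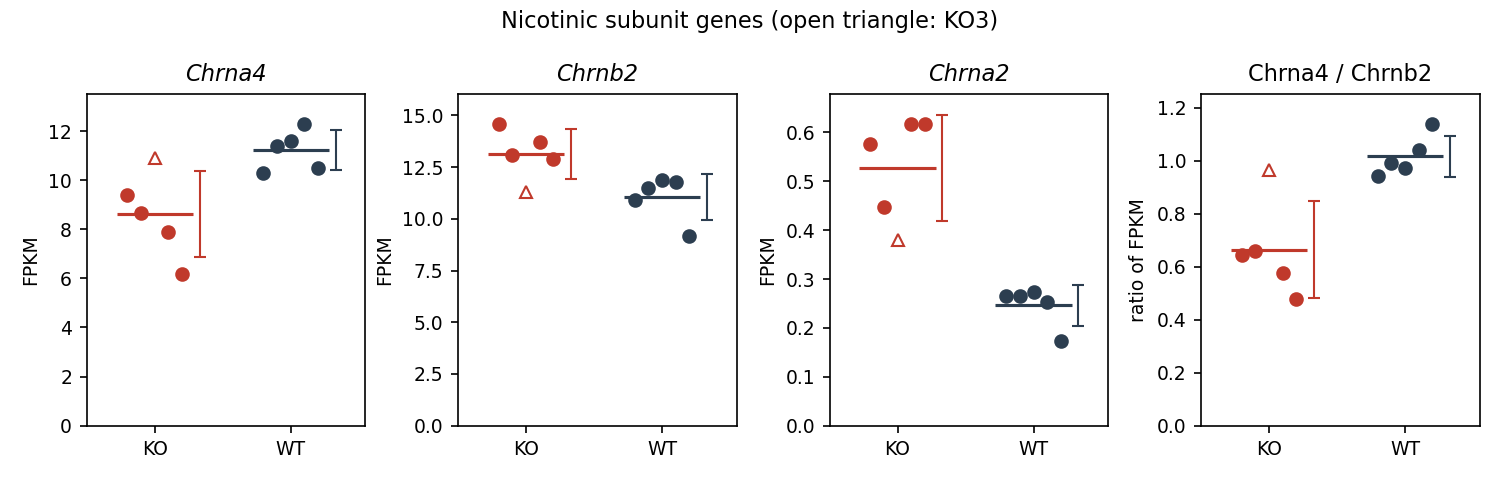
FPKM of Chrna4, Chrnb2 and Chrna2 and the ratio of Chrna4 to Chrnb2, KO left and WT right in each panel, with 1 point per library, horizontal lines at the group mean and bars of 1 SD (n = 5). The open triangle is the library labelled KO3, which has a ratio of 0.965 while the other KO libraries have 0.478 to 0.660.

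Of the 18 members below the filter, 17 had at least 1 fragment and 7 had an exact unadjusted p under 0.05, as had 774 of all 10909 such genes (7.10%), and none passed after adjustment, as none of those genes did. The smallest p of the exact permutation test, 0.00794, adjusted to 0.528 there, so none could pass. The 7 had 97 to 346 fragments each over all libraries. The 10909 genes were taken with any fragment and were not matched to them in depth. Chrna3, a subunit of ganglionic receptors, measured 0.519 ± 0.149 FPKM in KO and 0.350 ± 0.0719 FPKM in WT (SD, n = 5 each; exact two-sided permutation p = 0.0476). Chrnb3 measured 0.345 ± 0.0626 FPKM in KO and 0.339 ± 0.0538 FPKM in WT (exact p = 0.944), and the Gi/o-coupled Adra2b 0.338 ± 0.110 FPKM in KO and 0.244 ± 0.124 FPKM in WT (exact p = 0.222). Adrb3 measured 0.330 ± 0.125 FPKM in KO and 0.484 ± 0.0579 FPKM in WT (exact p = 0.0317). Chrna10 had 126 fragments in KO and 39 in WT (exact p = 0.0238), and Chrna6 had 27 in KO and 70 in WT (exact p = 0.0238). Chrna1, a subunit of the muscle receptor, had 114 fragments in KO and 74 in WT (exact p = 0.0476). Chrnb4 had 51 in KO and 34 in WT, Htr2b 32 in KO and 52 in WT, Tmigd3 19 in KO and 13 in WT, and Chrne 10 in KO and 6 in WT. Chrnd had no fragment in any library, and Htr3b, Chrng, Chrna9 and Hrh4 had between 1 and 5 fragments over all libraries.

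Adora1 led the adenosine family in both groups. It measured 52.0, 43.1, 46.7, 43.1 and 41.9 FPKM in KO1 to KO5, against 65.7, 54.9, 48.7, 49.3 and 55.0 FPKM in WT1 to WT5, and 4 KO libraries lay below every WT library. The log2 ratio of KO to WT was -0.26 (SE 0.08, limma adjusted p = 0.0599), or -0.27 with the library labelled KO3 left out (limma adjusted p = 0.0483). In the 6 libraries with Omp of at least 1 FPKM it was -0.09. Adora2b, a low-affinity Gs-coupled receptor, measured 2.09 ± 0.302 FPKM in KO and 1.86 ± 0.348 FPKM in WT (SD, n = 5 each; limma adjusted p = 0.446). Adora3, which in mouse brain is found in microglia, was below the filter at 0.540 ± 0.0940 FPKM in KO and 0.323 ± 0.128 FPKM in WT (exact two-sided permutation p = 0.0238), and it shares 779 exon bases with Tmigd3 on the same strand. The 6 microglial markers summed to 103 to 126 FPKM in KO and 91.2 to 111 FPKM in WT, and their part in the Adora3 values was not tested.

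None of the 3 histamine receptors tested passed with all libraries. Hrh3, the Gi/o-coupled presynaptic receptor, measured 26.6, 28.8, 23.2, 25.8 and 27.0 FPKM in KO1 to KO5, against 19.4, 24.7, 19.9, 20.8 and 24.8 FPKM in WT1 to WT5. Its log2 ratio of KO to WT was 0.25 (SE 0.08, limma adjusted p = 0.0553), or 0.30 with the library labelled KO3 left out (limma adjusted p = 0.0192). Hrh2, Gs-coupled, measured 1.69, 1.67, 1.32, 1.39 and 1.42 FPKM in KO1 to KO5, against 1.84, 1.70, 1.90, 1.94 and 1.93 FPKM in WT1 to WT5. Its groups did not overlap, which made it 1 of 3 tested receptor genes with every KO library below every WT library, where 1.85% of all genes had that and 5.70% the opposite, which no tested receptor gene had, but it did not pass (log2 fold change -0.20, limma adjusted p = 0.0737). Hrh1, Gq-coupled, measured 2.70 ± 0.504 FPKM in KO and 3.33 ± 0.438 FPKM in WT (SD, n = 5 each; limma adjusted p = 0.149).

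Without the library labelled KO3, 14 of the 38 receptor genes were called. For 13 of these 14, that library lay nearer to the WT mean than to the mean of the other KO libraries. Leaving it out thus widened those differences. Lower in KO were Adora1, Adra1d, Adrb1, Chrm1, Chrm3, Chrna4 and Htr1a, 18.4% of the receptor genes where 6.36% of all genes were called lower. Higher in KO were Adra1b, Chrm5, Chrnb2, Drd3, Drd4, Hrh3 and Htr2c, also 18.4%, where 19.6% of all genes were called higher. In limma voom without that library, only Drd3 and Drd4 of these were called higher, while all the genes named as lower were called lower. Limma voom called 3 higher and 11 lower of 46 there, where 9.57% and 10.5% of all genes were. Drd3 and Drd4 had entered the test on log2(FPKM + 1) only through their KO values. By coupling, limma on log2(FPKM + 1) without that library called 3 of the 9 Gq-coupled genes tested lower and 3 higher. Of 9 Gs-coupled genes 1 was lower and 0 higher, and of 13 Gi/o-coupled genes 2 were lower and 3 higher. Of 6 channel subunit genes 1 was lower and 1 higher.

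The olfactory bulb marker Omp was at least 1 FPKM in 4 KO and 2 WT libraries. Within those libraries the log2 fold changes were -0.57 for Adra1d, -0.28 for Chrm1, -0.34 for Chrm3 and -0.29 for Adrb1. Between the other libraries, 1 KO and 3 WT, they were -1.03, -0.54, -0.66 and -0.83. No gene of the whole table passed within the first set. No gene passed either when the mean log2 level of the olfactory bulb markers, or that of the striatal markers, entered the model. With the olfactory bulb markers in the model and the library labelled KO3 left out, all 4 passed (limma adjusted p between 0.00282 and 0.0105). That fit called 6 receptor genes lower, where 4.31% of all genes were, and 4 higher, where 9.62% were. Of 8 markers of cortical excitatory neurons 4 fell as well, Cux2, Rorb and Rasgrf2 among them, and none rose; without the library labelled KO3, Slc17a7 was called higher (limma adjusted p = 0.0455) beside 4 lower. The 8 summed to 864 to 1061 FPKM in KO and 848 to 965 FPKM in WT, a sum made up mostly of Slc17a7. The median log2 fold change of the 8 markers was -0.41, or -0.47 without the library labelled KO3. Over all genes it was 0.08 and 0.09. Their part in the 4 falls was not tested.

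The genes that make, carry and break down the transmitters came from a list chosen with earlier results of these data known. They gave more rises than falls, as did all genes. Of all genes 9.77% were called higher and 3.51% lower, or 19.6% and 6.36% without the library labelled KO3. Of 8 tested genes of catecholamine handling 3 rose and none fell (median log2 fold change 0.22, against 0.08 for all genes), and 4 were higher without the library labelled KO3. Th, which makes the dopamine precursor, measured 7.96, 13.1, 7.63, 11.4 and 5.39 FPKM in KO1 to KO5, against 0.833, 1.16, 5.74, 3.42 and 0.938 FPKM in WT1 to WT5 (log2 fold change 1.71, limma adjusted p = 0.0186; the library labelled KO3 left out, 1.75 and 0.00695). The highest WT values were those of WT3 and WT4, the WT libraries with Omp of at least 1 FPKM. With the olfactory bulb markers in the model, Th had a smaller log2 fold change, 0.81 (limma adjusted p = 0.0859). Dropping the library labelled KO3 from that fit gave 0.87 (limma adjusted p = 0.0142). Among the libraries with Omp of at least 1 FPKM, Th had 0.98 (limma adjusted p = 0.355). How much of the Th rise came from olfactory bulb tissue was not tested. Maoa, which degrades monoamines, rose by 0.34 on the log2 scale (limma adjusted p = 0.0234), with every KO library above every WT library, and by 0.40 with the library labelled KO3 left out. Maoa was also the 1 of 6 tested genes of serotonin handling that rose, and none fell; without the library labelled KO3, 2 were higher.

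Of 15 tested genes of acetylcholine handling and nicotinic accessory proteins 4 rose and 1 fell (median log2 fold change 0.29), and without the library labelled KO3 6 were higher and 3 lower. The shares over all genes were again 9.77% higher and 3.51% lower, or 19.6% and 6.36% without that library. Ache, which hydrolyses acetylcholine, measured 23.6, 20.7, 15.7, 24.7 and 29.9 FPKM in KO1 to KO5, against 11.8, 16.4, 14.3, 14.0 and 12.5 FPKM in WT1 to WT5 (log2 fold change 0.67, limma adjusted p = 0.0191). The library labelled KO3 lay inside the WT range, and without it the value was 0.80 (limma adjusted p = 5.41e-04). Ly6g6e rose by 0.95 (limma adjusted p = 0.0180), and Lypd1, which restrains nicotinic receptors, fell by 0.40 (limma adjusted p = 0.0331), or by 0.46 with the library labelled KO3 left out. Slc18a3, the vesicular acetylcholine transporter, and Tmem35, a chaperone of nicotinic receptor assembly, also rose (limma adjusted p = 0.0475 and 0.0419), but did not pass with median-of-ratios scaling (0.0696 and 0.101) or limma voom (0.0565 and 0.0886). Of 11 tested genes of adenosine handling Nt5e, which forms adenosine from AMP outside cells, rose (2.22 ± 0.368 FPKM in KO and 1.30 ± 0.319 FPKM in WT; SD, n = 5 each; limma adjusted p = 0.0227) and none fell, with a median of 0.11; without the library labelled KO3, 3 were higher and 0 lower. Neither of the 2 tested genes of histamine handling passed.

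Downstream of the receptors, Adcy1, the calcium-stimulated adenylyl cyclase of neurons, fell to 80.9 ± 11.5 FPKM in KO, against 118 ± 16.6 FPKM in WT (SD, n = 5 each; limma adjusted p = 0.0186), and Gnai3, a Gi alpha subunit, rose (limma adjusted p = 0.0441, but 0.125 with median-of-ratios scaling). They were the 2 called among 18 tested alpha subunits and cyclases (median log2 fold change -0.03); without the library labelled KO3, 3 were higher and 3 lower. Of 20 receptor kinases, arrestins, RGS proteins and related regulators 3 rose and 1 fell, and without the library labelled KO3 3 were higher and 3 lower. Over all genes the shares were those given above, 9.77% higher and 3.51% lower with all libraries and 19.6% and 6.36% without that library. Rgs10, which shortens Gi/o signalling, rose by 0.58 on the log2 scale (limma adjusted p = 0.0186), and Adrbk1, the kinase that desensitises beta adrenergic receptors, fell by 0.41 (limma adjusted p = 0.0391). Ppp1r1b, a striatal phosphatase inhibitor counted among the striatal markers too, rose as well (238 ± 35.9 FPKM in KO and 145 ± 61.9 FPKM in WT; SD, n = 5 each; limma adjusted p = 0.0359, but 0.0568 with median-of-ratios scaling).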

How the data were processed

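Motor cortex RNA was isolated with a tissue kit from Kurabo and prepared, per the labels' protocols, with NEBNext chemistry. The submitters' processing notes list the build mm10 and the tool DESeq2 without saying how either was used, and no aligner, counter or annotation is named there. The authors deposited gene lengths and FPKM per gene and library. FPKM times length, divided by 1 step per library, gave whole fragments (within 0.02) for 100% of values above 0, so depth could be recovered.

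Groups and replicate numbers came from the sample titles. Over 45 pairs of libraries the smallest chi-square per gene was 7.62, so none was counted as a duplicate. The test was limma 3.58.1 (R 4.3.3; two-sided, with an intensity trend and genotype as the only term) on log2(FPKM + 1) for the 14497 genes whose mean reached 0.5 FPKM. Calls were made at a p under 0.05 after Benjamini-Hochberg adjustment over these genes. Fold changes on this scale understate those of low genes. Genes below the filter had exact permutation tests over all assignments of the libraries, adjusted over all such genes, where the plan had named the receptor genes alone. The limma step was tested on simulated data.

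Members and lists were chosen with earlier results of these data known. Values per library are given for called members, the most abundant of each family, members at an unadjusted p under 0.05 and the 5 deepest below the filter, some of these as means, and up to 3 called genes per related list are named; others, Drd1a and the ratios among them, were chosen after their values were seen. Coupling classes are textbook assignments. Whether the kit keeps strand is not stated. Some genes that enter the counts are not reported here by name.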

Additional observations from a re-analysis of the deposited data

Results flagged for a closer look

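Of 76 groups of 5 libraries examined for the 38 receptor genes tested, 5 held a library apart from the rest of its group, where chance gives about 1 in 20. None was the library labelled KO3. For Adra1a, KO5 was the lowest KO value at 3.82 FPKM and WT3 the highest WT value at 5.61 FPKM. WT1 was the highest WT value for Htr7 at 4.31 FPKM, WT2 the highest for Htr1b at 4.41 FPKM, and WT4 the lowest for Hrh1 at 2.58 FPKM.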

How the results depend on the processing

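With all libraries 4 receptor genes were lower and 0 higher in KO. Leaving out each library in turn gave 0 to 7 lower (0 without KO2, KO4 or WT1; 7 without the library labelled KO3) and 0 to 7 higher (7 without the library labelled KO3, 6 without WT2, 1 without KO5 or WT5). Without KO1, KO5, WT3, WT4 or WT5, 2 were lower. Of all genes 4.99% were called higher and 1.82% lower without KO5, and 4.07% and 1.77% without WT5. Those shares were 2.71% and 1.26% without KO1, 6.24% and 2.23% without WT3, and 6.40% and 2.31% without WT4. Lower were 7 with median-of-ratios scaling, 8 with limma voom on recovered fragments, 1 with no filter, and 0 with the olfactory bulb score, with the striatal score, with the exact permutation test or within the libraries with Omp of at least 1 FPKM. Higher was 1 with a pseudocount of 0.1 FPKM (Drd4), with a filter of 0.1 FPKM or none (Chrna2), with limma voom (Chrna2) or with Y-linked transcripts as a covariate (Adra1b). Shares of all genes called higher and lower were 9.66% and 3.46% with that pseudocount, 6.34% and 2.40% with that filter, 1.37% and 0.464% with none, 10.3% and 3.91% with Y-linked transcripts, and 6.10% and 2.67% with the replicate block. Without the library labelled KO3 the olfactory bulb score gave 4 higher and limma voom 3 higher and 11 lower of 46 (6.52% and 23.9%, where 9.57% and 10.5% of all genes were). With the replicate block 1 was higher (Hrh3) and 4 were lower, among them Adora1 in place of Adrb1; same-numbered libraries had correlations between -0.0574 and 0.139, so the numbers were not taken to pair mice. Over all genes, 0 passed with either score or within the Omp libraries, and 2 without KO2, KO4 or WT1. In the exact permutation test the smallest p possible adjusted to 0.105, so no gene could pass. The Y-linked, Omp and voom without the library labelled KO3 fits were added after seeing the data. Across 23 alternatives the log2 fold change stayed negative for Adra1d (-0.91 to -0.51), Chrm1 (-0.47 to -0.24), Chrm3 (-0.59 to -0.26) and Adrb1 (-0.79 to -0.29), with adjusted p from 1.25e-04, 4.83e-04, 6.92e-04 and 1.20e-04 up to 0.355, 0.355, 0.358 and 0.537; the call held in 16, 15, 10 and 7 of them. None of the genes that changed sign was called with all libraries. With the striatal score Adora2a was -0.06, Chrm4 -0.22, Drd2 -0.20, Htr2c -0.0021, Chrna7 -0.06, Htr6 -0.07, Htr1b -0.07 and Htr1d -0.07. With the olfactory bulb score Adra1a was -0.12, Chrm2 -0.13, Htr7 0.09, Chrna5 -0.02 and Drd5 -0.10; without the library labelled KO3 as well, Adra1a was -0.13, Chrm2 -0.15, Htr7 0.10, Chrnb1 0.01 and Drd5 -0.06. Within the Omp libraries Chrna5 was -0.05 and Drd5 -0.03. Adra1a was -0.01 with median-of-ratios scaling and -0.03 with limma voom without the library labelled KO3. Leaving out libraries gave -0.11 to 0.02 for Htr5b and -0.02 to 0.09 for Drd5. The cause of these changes was not tested. Depth limits the members with few fragments.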
